A study of Mus musculus with 6 samples.

Results

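The genes described here encode 7 effector enzymes of macrophages: *Ptgs2*, *Nos2*, *Arg1*, *Acod1*, *Ch25h*, *Sod2* and *Hmox1*. Every CUT&RUN peak that touched 1 of these gene bodies, extended by 50 kb on each side, was taken, which gave 174 of the 142059 peaks in the 4 lists and 7 of 21951 protein-coding genes. Each gene lies on another chromosome, so no peak was counted for more than 1 gene. Distances are given from a peak's summit, its highest point, to the transcription start site (TSS) of the gene, and follow the gene's strand.

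The cells were bone marrow-derived macrophages (BMDMs) of C57BL/6 mice, grown from marrow with L929-conditioned medium. They were treated for 1 h with LPS, a bacterial cell wall component, or with PBS as the control, and the labels name no deletion or transgene in either arm. CUT&RUN, in which an antibody guides a nuclease to a chromatin mark and the released fragments are sequenced, was run for H3K4me1, a mark of enhancers, for H3K27ac, found at promoters and enhancers in use, and for IgG. There was 1 library for each antibody and treatment, so that no difference between LPS and PBS could be tested against replicates and no p-value is given between treatments. The 4 libraries of the histone marks had a peak list, while IgG, labelled as input, was not used here.

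Activated macrophages make signals and toxic products with a small set of inducible enzymes, and limit the damage with others. PTGS2 (COX-2) makes the prostanoid precursor from arachidonic acid, NOS2 makes nitric oxide from arginine, and ARG1 turns the same amino acid into ornithine. ACOD1 diverts aconitate from the tricarboxylic acid cycle into itaconate, CH25H makes the oxysterol 25-hydroxycholesterol, SOD2 removes superoxide in mitochondria, and HMOX1 breaks down heme. In macrophages many enhancers carry H3K4me1 before any stimulus, and H3K27ac is added to them, or to their promoters, when they become active.

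The lists differed greatly in size, with 4200 peaks for LPS H3K27ac, 52 for PBS H3K27ac, 73049 for LPS H3K4me1 and 64758 for PBS H3K4me1. Fragment totals recovered from the peak statistics were 5.66, 7.21, 7.01 and 6.86 M, so depth differed little between the H3K4me1 libraries. The weakest peak held 8 fragments over its summit in both H3K4me1 lists and in the PBS H3K27ac list, and 5 in the LPS H3K27ac list. A region without a peak is therefore a region below these limits or not enriched over the local background, and not a region shown to lack the mark. Of 10 macrophage marker genes, 10 had an LPS H3K4me1 summit within 10 kb of the TSS and 8 had a PBS one, against 7 and 5 of 14 markers of T cells, B cells, neutrophils and fibroblasts. An LPS H3K27ac summit lay there for only 2 of the 10 macrophage markers and 1 of the 14 others, and a PBS one for none. Most macrophage markers thus had no H3K27ac call in either list, which limits what a missing H3K27ac peak can mean.

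Under LPS, H3K27ac was called at *Acod1* and in the window of *Ch25h* and at none of the other 5 genes. The 4 peaks are printed because they are the only H3K27ac peaks of either treatment in the 7 windows. Sequences were read from GRCm38.p6, 5′ to 3′ on the strand of the gene. Capitals mark matches, on either strand, to the letters of AP-1 (TGANTCA), of the antioxidant response element (TGACNNNGC) bound by NRF2 and BACH1, of PU.1 (GAGGAAG), of kappaB (GGG, any 2 bases, TTTCC) and of an IRF motif (GAAA, any 2 bases, GAAA).

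Acod1 distal peak, chr14:103034133-103034359, plus strand: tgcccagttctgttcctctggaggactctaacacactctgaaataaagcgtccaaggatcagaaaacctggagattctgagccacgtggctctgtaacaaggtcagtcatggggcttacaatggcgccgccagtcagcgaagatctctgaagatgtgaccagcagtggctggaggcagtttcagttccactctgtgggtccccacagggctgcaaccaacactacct

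Acod1 promoter peak, chr14:103046636-103046791, plus strand: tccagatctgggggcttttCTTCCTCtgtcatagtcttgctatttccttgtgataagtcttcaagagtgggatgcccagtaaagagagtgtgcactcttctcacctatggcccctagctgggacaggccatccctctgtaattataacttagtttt

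Ch25h window, summit with 100 bp on each side, chr19:34516246-34516446, minus strand: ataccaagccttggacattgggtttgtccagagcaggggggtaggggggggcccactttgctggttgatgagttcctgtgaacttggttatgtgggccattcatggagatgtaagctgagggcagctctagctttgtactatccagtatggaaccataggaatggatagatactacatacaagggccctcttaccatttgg

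Ch25h window, whole peak, chr19:34521227-34521346, minus strand: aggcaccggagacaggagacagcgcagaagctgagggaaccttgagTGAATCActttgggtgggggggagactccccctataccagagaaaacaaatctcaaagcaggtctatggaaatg

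The *Acod1* promoter peak held 1 PU.1 match, at chr14:103046655-103046661, and the farther *Ch25h* peak held 1 AP-1 match, at chr19:34521294-34521300. Around all LPS H3K27ac summits, within 100 bp on each side, PU.1 letters were found at 9.67% of peaks and AP-1 letters at 6.4%. The distal *Acod1* peak and the nearer *Ch25h* sequence held no match to these 5 motifs, which says only that these letters are not in those windows. None of the 4 summits lay mostly in repeats, while 9.79% of all LPS H3K27ac summits did.

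Further sequences are shown for the H3K4me1 results: the element upstream of *Hmox1* that held most antioxidant response element matches and the highest *Arg1* peak under LPS.

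Hmox1 element, PBS H3K4me1 summit with 100 bp on each side, chr8:75083899-75084099, plus strand: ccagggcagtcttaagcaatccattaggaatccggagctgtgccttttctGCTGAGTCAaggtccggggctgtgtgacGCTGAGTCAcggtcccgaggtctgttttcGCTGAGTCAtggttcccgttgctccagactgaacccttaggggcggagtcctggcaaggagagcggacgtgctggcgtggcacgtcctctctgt

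Arg1 element, LPS H3K4me1 summit with 100 bp on each side, chr10:24930279-24930479, minus strand: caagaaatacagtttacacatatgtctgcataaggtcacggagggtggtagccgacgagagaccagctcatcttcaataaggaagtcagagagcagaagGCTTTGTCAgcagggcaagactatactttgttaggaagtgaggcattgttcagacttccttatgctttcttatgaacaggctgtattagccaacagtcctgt

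In the *Hmox1* element the letters GCTGAGTCA stood 3 times, at chr8:75083949-75083957, chr8:75083977-75083985 and chr8:75084006-75084014. Each is an antioxidant response element match on the minus strand and contains an AP-1 match, so the motifs overlap and are not separate observations. The *Arg1* element held 1 antioxidant response element match, at chr10:24930372-24930380. RefSeq promoter sequences were at hand for 4 of the 7 genes (*Ptgs2*, *Acod1*, *Sod2* and *Ch25h*). These promoter sequences ran from 250 bases before to 50 bases after the start. None held AP-1, antioxidant response element, PU.1, kappaB or IRF letters. Over all 32851 promoters of that length the shares were 7.81%, 12.4%, 13.6%, 1.63% and 3.44%, in that order. Sites spelled with other letters were not sought, so the promoters are not shown to lack sites for these factors.

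A sixth motif, the CEBP letters TTNCNNAA, was left in lower case because it is common. It was found at 41 of 87 LPS and 43 of 83 PBS H3K4me1 summits of the 7 windows, shares of 47.1% (95% Wilson interval 37.0 to 57.5%) and 51.8% (41.2 to 62.2%), against 34.4% and 36% over the whole lists. AP-1 letters stood at 13.8% and 10.8% of the window summits, against 9.94% and 9.46%, and antioxidant response element letters at 11.5% and 15.7%, against 9.41% and 9.12%. PU.1 letters stood at 13.8% and 10.8%, against 13.4% and 14.1%, and IRF letters at 3.45% and 6.02%, against 2.47% and 2.55%. Many of the same elements are counted under both treatments, and neighbouring summits can share a match. In the 4 promoter sequences the CEBP letters were found at *Ptgs2* and *Ch25h*, with 2 matches each, and at neither *Acod1* nor *Sod2*. Of all 32851 promoters, 40.7% held them.

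All 7 genes had H3K4me1 peaks in their window under both treatments, but in very unequal numbers. Of all protein-coding genes, 74.1% had an LPS H3K4me1 peak in the same kind of window and 70.7% a PBS H3K4me1 peak, so the presence of a peak does not set these genes apart. *Acod1*, *Ch25h* and *Hmox1* were densely marked, with 22, 29 and 22 peaks under LPS and 29, 20 and 17 under PBS. *Ptgs2*, *Nos2*, *Arg1* and *Sod2* had 2, 4, 5 and 3 peaks under LPS and 4, 4, 5 and 4 under PBS. The median over the 7 genes was 5 peaks in each list, and over all protein-coding genes it was 4 under LPS and 3 under PBS.

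The dense group stood high among all genes. At least 22 LPS H3K4me1 peaks were found for 6.5% of protein-coding genes, and at least 29 for 3%. At least 29 PBS H3K4me1 peaks, the number for *Acod1*, were found for 2.33%. When only peaks with a −log10 q of 5 or more were kept, *Acod1*, *Ch25h* and *Hmox1* held 14, 22 and 16 LPS peaks and 16, 11 and 12 PBS peaks. *Arg1* then held 3 under each treatment, *Sod2* 2 and 0, *Nos2* 1 and 0, and *Ptgs2* none.

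**Figure D1:**
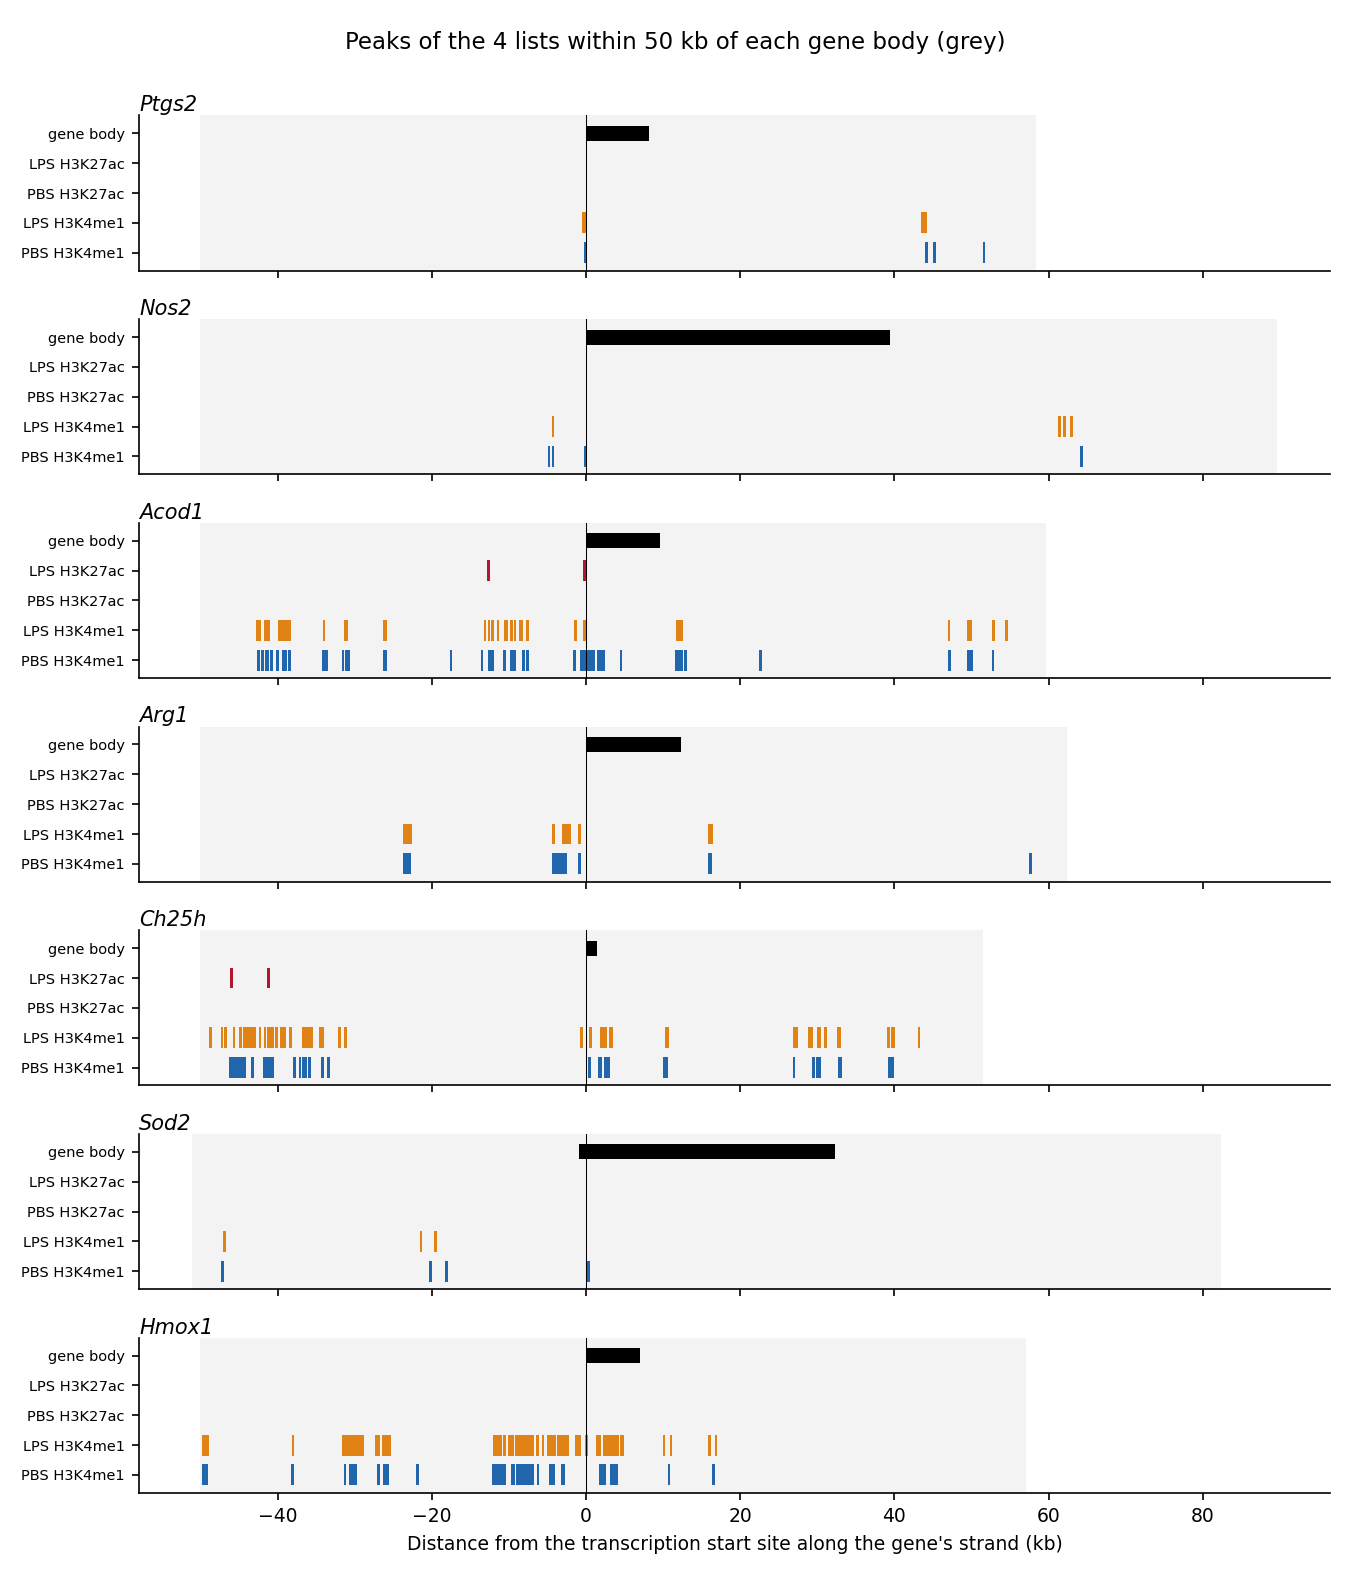
Map of all peaks in the windows of the 7 genes, by distance from the TSS in kb along the gene's strand, with 1 row per peak list, the gene body in black and the window in grey. Peaks too narrow to see are drawn wider. Red LPS H3K27ac marks are seen at *Acod1* and *Ch25h* only, no PBS H3K27ac mark is seen, and *Acod1*, *Ch25h* and *Hmox1* hold 17 to 29 H3K4me1 marks per list where the other genes hold 2 to 5.

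H3K27ac was far sparser. An LPS H3K27ac peak lay in the window of 2 of the 7 genes, against 27.7% of protein-coding genes, and a PBS H3K27ac peak in none, against 0.588%. Within 10 kb of the TSS, *Acod1* alone had an LPS H3K27ac summit, where 8.92% of protein-coding genes had one, and none of the 7 had a PBS H3K27ac summit, where 0.164% of genes did. These shares are close to what the lists give for any gene. The nearest LPS H3K27ac summit to the other 5 genes was 59.8 kb away for *Hmox1*, at the TSS of the neighbouring *Tom1*, 66.7 kb for *Sod2*, near *Acat3*, 153 kb for *Ptgs2*, 294 kb for *Nos2* and 380 kb for *Arg1*.

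Near the TSS, H3K4me1 was more general. Within 10 kb, 6 of the 7 genes had an LPS H3K4me1 summit and all 7 a PBS one, against 47.6% and 41.0% of protein-coding genes. *Sod2* was the gene without an LPS summit there. A peak over the TSS base itself was called at *Hmox1* under LPS and at *Ptgs2* and *Acod1* under PBS.

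The H3K4me1 peaks of the 7 windows overlapped between treatments about as often as in the whole lists. Of 87 LPS peaks, 28 had no overlapping PBS peak, a share of 32.2% (95% Wilson interval 23.3 to 42.6%), and the share was 38.8% over the whole LPS list. Of 83 PBS peaks, 26 had no overlapping LPS peak, a share of 31.3% (22.4 to 41.9%), against 26.9% over the whole PBS list. These intervals cover counting error only, and neighbouring peaks of a window are not independent. Peaks found under 1 treatment were the weaker ones, with a median of 16 fragments over the summit under LPS and 15 under PBS, against 20 and 20 for overlapped peaks. All H3K4me1 peaks behaved alike, with medians of 14 and 13 against 20 and 19.

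Among the densely marked genes, the peaks found under 1 treatment were mostly PBS peaks at *Acod1* and mostly LPS peaks at *Ch25h* and *Hmox1*, without replicates to set these counts against. At *Ch25h* 12 of 29 LPS peaks (41.4%) and 4 of 20 PBS peaks (20%) had no partner, and at *Hmox1* 8 of 22 (36.4%) and 3 of 17 (17.6%). For LPS both shares are close to the 38.8% of the whole list. At *Acod1* 3 of 22 LPS peaks (13.6%, 95% Wilson interval 4.75 to 33.3%) had no partner, below the whole list's share, and 10 of 29 PBS peaks (34.5%, 19.9 to 52.7%), an interval that holds the 26.9% of the PBS list. These are bulk cells, in which fewer marked cells and less mark per cell cannot be told apart. LPS peaks covered 10072 bp and PBS peaks 13342 bp at *Acod1*, 14563 and 10716 bp at *Ch25h*, and 18678 and 12085 bp at *Hmox1*. The ratio of LPS to PBS was 0.755, 1.36 and 1.55, beside 1.25 for the whole lists, which covered 38.7 and 31.1 Mb with median peak widths of 353 and 335 bp. The differences of list size and of covered length between the treatments touch each of these ratios, and their part was not tested.

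**Figure D2:**
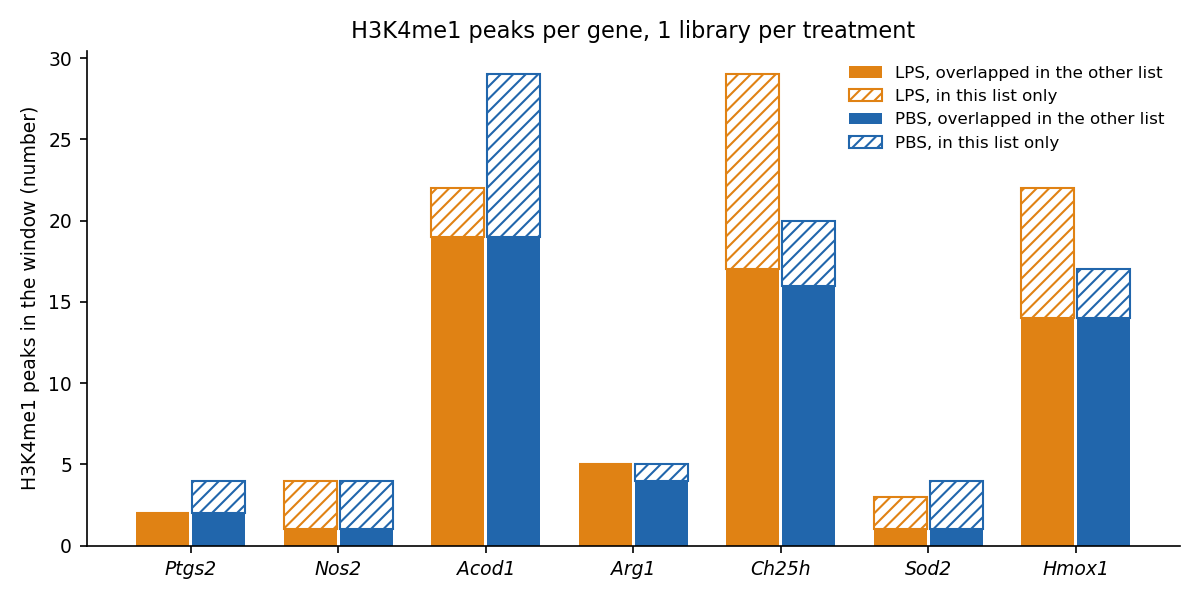
H3K4me1 peaks in the window of each gene, with LPS in orange and PBS in blue, 1 library per treatment and no error bars. Filled bars count peaks overlapped by a peak of the other treatment and hatched bars those without: *Acod1* has 10 hatched PBS peaks and 3 hatched LPS peaks, and *Ch25h* has 4 and 12.

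Where peaks of both treatments overlapped, they were joined into 50 regions in the 7 windows, and the highest summit of each treatment was compared. LPS was higher in 27 regions, PBS in 18, and 5 were equal. The share with LPS higher was 54%, against 56.2% of 39917 regions over the whole lists. By gene, LPS was higher in 11 of 13 regions at *Ch25h* and in 7 of 12 at *Hmox1*, PBS was higher in 11 of 17 at *Acod1*, and 3 of 4 regions at *Arg1* were equal. Only 1 of the 50 regions had counting intervals that did not overlap, the *Acod1* TSS described next, where PBS was higher.

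*Ptgs2* (ENSMUSG00000032487.8, chr1:150100031-150108227, plus strand) had weak H3K4me1 only. The LPS peak nearest to the TSS had its summit 172 bp upstream, was 440 bp wide and held 22 fragments (95% Poisson interval 13.8 to 33.3). The PBS peak nearest to the TSS had its summit 283 bp upstream, was 362 bp wide and held 17 fragments (9.9 to 27.2). The peaks overlapped, their intervals overlapped, and both lay nearest to the TSS of *Ptgs2os*, a noncoding gene that starts in the *Ptgs2* promoter on the opposite strand.

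The only other region of *Ptgs2* shared by the treatments lay from 43.5 to 44.4 kb downstream, with 15 fragments under LPS and 12 under PBS. PBS peaks without an LPS partner followed at 45147 bp, with 14 fragments, and at 51524 bp, with 16. Both of their summit windows held AP-1 letters, and the former also held an antioxidant response element match that overlapped one of them. No *Ptgs2* peak ranked above 43539 of 64758 under PBS or 59154 of 73049 under LPS, so all belonged to the weaker part of their list.

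*Nos2* (ENSMUSG00000020826.8, chr11:78920787-78960254, plus strand) had 1 element shared by the treatments, from 4.2 to 4.5 kb upstream of the TSS. Its summit lay 4394 bp upstream under LPS, with 20 fragments (12.2 to 30.9), and 4447 bp upstream under PBS, with 15 (8.4 to 24.7). A PBS peak of 146 bp lay 154 bp upstream of the TSS with 13 fragments, and LPS had no peak there. A further PBS peak stood 4874 bp upstream with 12 fragments.

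The remaining *Nos2* window peaks lay beyond the 3′ end, at *Lgals9*, which encodes galectin-9. Under LPS, 3 peaks of 9 to 19 fragments were called in *Lgals9* introns, 1244 to 2657 bp downstream of the nearest annotated *Lgals9* TSS. The PBS peak there, with 15 fragments, lay 11 bp upstream of the *Lgals9* TSS nearest to it and overlapped none of the LPS peaks. The TSS nearest to the PBS peak is not the one nearest to the LPS peaks. No peak of any list touched the 39468 bp of the *Nos2* gene body.

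*Arg1* (ENSMUSG00000019987.9, chr10:24915221-24927484, minus strand) had the most even pattern, with all 5 LPS peaks overlapped under PBS and 4 of 5 PBS peaks overlapped under LPS. The strongest element upstream lay from 2.0 to 4.4 kb from the TSS. Its LPS peak was 1146 bp wide with 33 fragments (22.7 to 46.3), rank 3276 of 73049, and its PBS peak was 1948 bp wide with 35 fragments (24.4 to 48.7). This is the element whose sequence is printed, and the counting intervals of the treatments overlapped there.

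The other shared *Arg1* regions had equal counts: 17 and 17 fragments at 768 bp (LPS) and 851 bp (PBS) upstream, 23 and 23 from 22.6 to 23.8 kb upstream, and 29 and 29 from 15.8 to 16.4 kb downstream. The downstream region lay in an intron of *Med23*, a Mediator subunit gene, beyond the 3′ end of *Arg1*, and its PBS peak was the highest of the window by −log10 q, rank 2561 of 64758. The peak found under PBS alone, with 16 fragments, lay 37 bp upstream of the *Med23* TSS. No peak touched the *Arg1* gene body.

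*Acod1* (ENSMUSG00000022126.6, chr14:103046977-103056573, plus strand) carried the clearest difference between the lists. The stronger of its H3K27ac peaks under LPS had its summit 12727 bp upstream, was 227 bp wide and had a fold enrichment of 8.71 over the local background, rank 171 of 4200. It held 12 fragments (6.2 to 21) and lay 447 bp upstream of the TSS of the noncoding gene *4933432I03Rik*, which runs away from *Acod1*. H3K4me1 was called at this place under both treatments, with 18 fragments under LPS and 27 under PBS.

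The promoter H3K27ac peak of *Acod1* had its summit 266 bp upstream, was 156 bp wide and held 8 fragments (3.45 to 15.8), rank 2059 of 4200. It lay within H3K4me1 peaks of both treatments. With a −log10 q of 3.75 it was lost at the stricter limit of 5, at which only the distal peak stayed.

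H3K4me1 at the *Acod1* TSS was wide and high under PBS and narrow and low under LPS. The PBS peak was 1524 bp wide, covered the TSS with its summit 49 bp downstream, held 40 fragments (28.6 to 54.5) and ranked 738 of 64758. The LPS peak was 371 bp wide, ended upstream of the TSS with its summit 265 bp upstream, held 16 fragments (9.15 to 26.0) and ranked 51133 of 73049. Counting intervals did not overlap, as in 73 of the 39917 regions of the whole lists in favour of LPS and in 12 in favour of PBS.

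The PBS signal ran on into the *Acod1* gene. Further PBS peaks of 1031 and 290 bp had summits 1794 and 4597 bp downstream of the TSS, each with 27 fragments (17.8 to 39.3), and LPS had none. In all, PBS peaks covered 2472 bp, or 25.8%, of the *Acod1* gene body and LPS peaks 0 bp. Cover of at least this share under PBS with no LPS cover was found for 13 of 21951 protein-coding genes, *Acod1* included, and the reverse, at the same share, for 27. This feature was chosen after the values were seen and rests on 1 library per treatment.

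**Figure D3:**
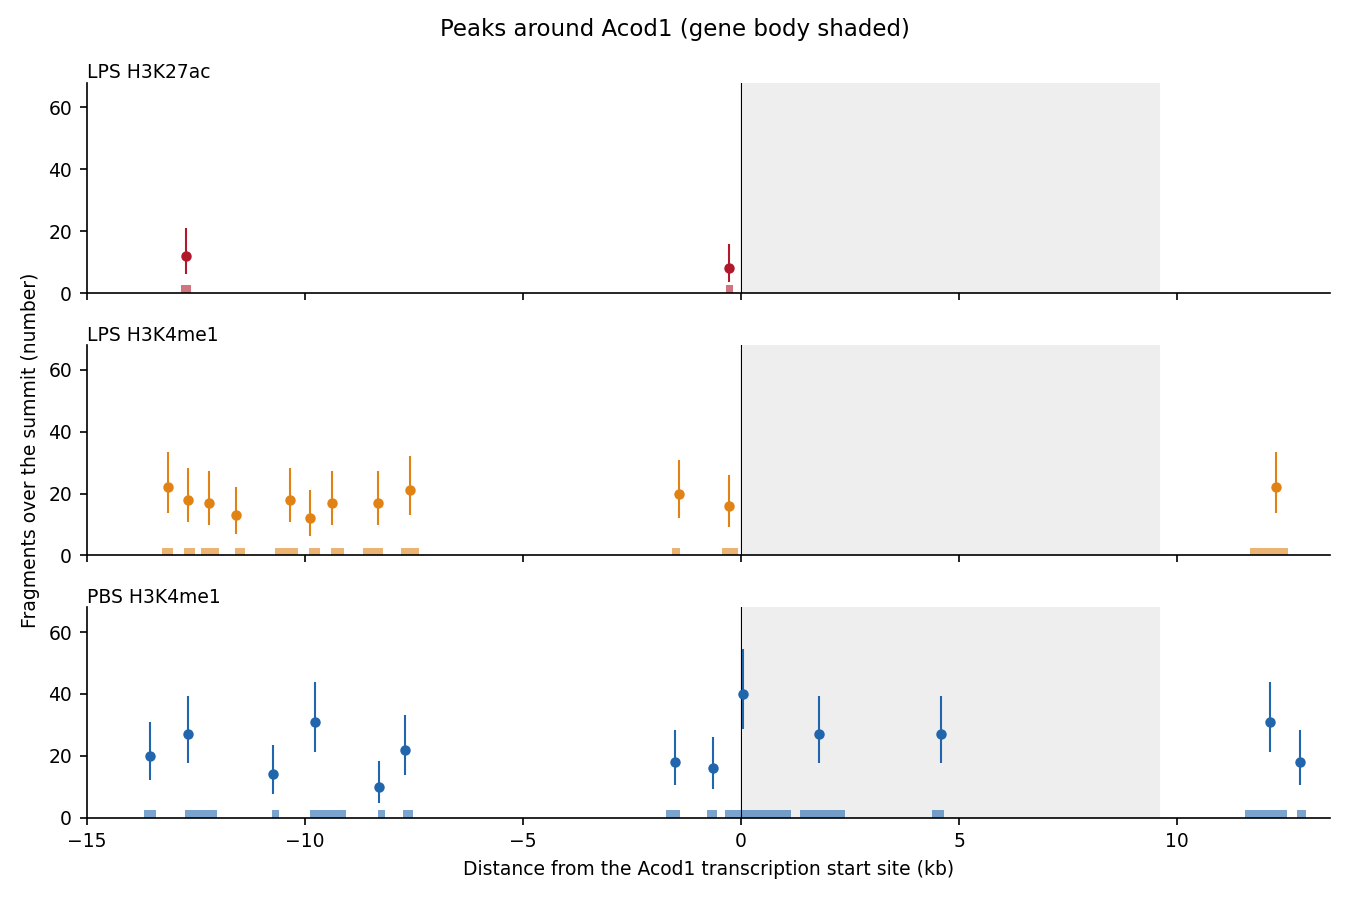
Fragments over each summit around *Acod1*, by distance from the TSS in kb, with 95% Poisson intervals for counting error as lines and the extent of each peak as a bar along the axis. PBS H3K4me1 reaches 40 fragments at the TSS and continues into the shaded gene body at 27 and 27, LPS H3K4me1 stops at 16 fragments before the TSS, and LPS H3K27ac has summits of 12 and 8.

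Upstream, *Acod1* shared most of its elements between treatments. From 7.4 to 12.8 kb upstream, 5 regions held H3K4me1 under both, among them one from 9.1 to 9.9 kb upstream with 17 fragments under LPS and 31 under PBS. The highest LPS peak of the window lay 38697 bp upstream in an intron of *4933432I03Rik*, 1722 bp wide with 33 fragments, and the same region held 35 under PBS. Of the summit windows, 6 of 22 under LPS and 5 of 29 under PBS held PU.1 letters, against 13.4% and 14.1% over the whole lists.

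*Ch25h* (ENSMUSG00000050370.5, chr19:34473778-34475164, minus strand) is a short gene, and much of the H3K4me1 of its window lay in the neighbouring *Lipa*, the gene of lysosomal acid lipase. Introns of *Lipa* held 16 of 29 LPS and 10 of 20 PBS peaks, and both H3K27ac peaks. *Ch25h* had the nearest protein-coding TSS for 13 LPS and 10 PBS peaks, and for no H3K27ac peak. These data do not tell which gene such an element serves.

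The H3K27ac peak nearer to *Ch25h* lay 41182 bp upstream of its TSS, was 387 bp wide and held 9 fragments (4.12 to 17.1), rank 2602 of 4200. The other lay 46123 bp upstream, was 120 bp wide and held 7 fragments (2.81 to 14.4), rank 2091. Both had a −log10 q below 5. The nearer one lay within H3K4me1 of both treatments, and the farther one touched a PBS H3K4me1 peak with 18 fragments and no LPS H3K4me1 peak.

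In all, 4 of the 4 H3K27ac peaks of the 7 windows were overlapped by PBS H3K4me1 and 3 of 4 by LPS H3K4me1. Over the whole LPS H3K27ac list the shares were 29.9% and 33.6%. When 50% of both peaks had to overlap, the shares in the windows fell to 0% and 25%. The *Acod1* peaks and the nearer *Ch25h* peak were 227, 156 and 387 bp wide. The PBS H3K4me1 peaks over them were 744, 1524 and 1463 bp wide, so there the widths alone kept the rule from being met. With 4 peaks the 95% Wilson intervals ran from 51 to 100% and from 30.1 to 95.4%. The 3 dense windows hold many H3K4me1 peaks, and the part of that density in the overlap was not tested.

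At *Ch25h* itself a small H3K4me1 peak lay over the gene under both treatments, with 20 fragments under LPS, 503 bp downstream of the TSS, and 13 under PBS, 324 bp downstream. An LPS peak 658 bp upstream, with 19 fragments, had no PBS partner. The highest LPS peak of the window, 40654 bp upstream, was 952 bp wide with 37 fragments (26.1 to 51.0), and the PBS peak at the same region held 21 (13.0 to 32.1). The highest PBS peak by −log10 q, 36305 bp upstream, held 24 fragments, and the LPS peak over it held 28.

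Downstream of *Ch25h*, from 26.8 to 40.1 kb, 6 regions were shared, and the widest gap was 25 fragments under LPS and 11 under PBS, in a region 28.8 to 29.6 kb from the TSS. Here too the intervals overlapped, at 16.2 to 36.9 and 5.49 to 19.7. The kappaB letters are a narrow form of the sites bound by NF-kappaB, and sites with other letters were not sought. In the 7 windows these letters were found at 1 H3K4me1 summit. It was an LPS peak without a PBS partner, 38941 bp upstream of *Ch25h* in *Lipa*. Of the sequence around that summit, 63.7% was repeat-masked. Over the whole lists the kappaB letters were found at 1.13% of LPS and 1.1% of PBS H3K4me1 summits.

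*Sod2* (ENSMUSG00000006818.5, chr17:13006846-13040063, plus strand) had the least H3K4me1 near its TSS. A PBS peak of 162 bp had its summit 142 bp downstream, in an exon, and held 16 fragments (9.15 to 26.0). LPS had no peak within 10 kb, and the gene body held no other peak of any list. The weakest peaks of the LPS list held 8 fragments, and whether *Sod2* differed between treatments was not tested.

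The other *Sod2* window peaks lay nearer to the TSS of other genes, and these data do not tell which gene they serve. A region shared by the treatments stood at the TSS of *Acat2*, a thiolase gene, with 17 fragments under LPS and 12 under PBS. In introns of *Wtap*, which encodes a subunit of the RNA m6A writer, LPS peaks lay 21477 and 19579 bp and PBS peaks 20019 and 18172 bp upstream of *Sod2*, and none of these overlapped. The LPS peak at 19579 bp was the highest of the window, with 27 fragments, and 95% of its summit sequence was repeat-masked.

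*Hmox1* (ENSMUSG00000005413.8, chr8:75093621-75100589, plus strand) had no H3K27ac and, under LPS, the H3K4me1 peak with the most fragments of the 7 windows, while under PBS that peak was at *Acod1*. This LPS peak lay 30163 bp upstream in an intron of *Tom1*, an endosomal trafficking gene, 2857 bp wide with 48 fragments (35.4 to 63.6) under LPS, rank 214 of 73049. Under PBS the same region held a peak of 1083 bp with 35 fragments (24.4 to 48.7), rank 3759 of 64758, and a smaller one of 261 bp. The intervals overlapped.

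From 12.2 to 2.3 kb upstream of *Hmox1* H3K4me1 peaks followed each other closely under both treatments. A region with its PBS summit 11329 bp upstream held 32 fragments under LPS and 31 under PBS, and its PBS peak, 1774 bp wide and rank 866, was the highest of the window by −log10 q. The element whose sequence is printed, from 9.2 to 10.1 kb upstream, held 22 fragments under LPS (13.8 to 33.3) and 19 under PBS (11.4 to 29.7). A region of 2420 bp from 9.2 to 6.7 kb upstream held 35 and 36 fragments. From 2.3 to 3.7 kb upstream the LPS peak was 1476 bp wide with 31 fragments (21.1 to 44.0), and the PBS peak was 470 bp wide with 14 (7.65 to 23.5).

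This printed element was the one with repeated antioxidant response element letters. Around the PBS summit there were 3 matches, a number reached at 0.034% of all PBS H3K4me1 summits, and around the LPS summit there were 2, reached at 0.504% of LPS summits. In all, 4 of 22 LPS and 5 of 17 PBS peaks of *Hmox1* held at least 1 match, beside 9.41% and 9.12% over the whole lists. The element was picked out after its matches were seen, and a match does not show that a factor was bound.

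At the *Hmox1* TSS an LPS peak of 151 bp held 24 fragments (15.4 to 35.7), with its summit 48 bp upstream. It ranked 49923 of 73049, and its −log10 q of 4.39 is below the stricter limit of 5. Another LPS peak lay 1256 bp upstream with 16 fragments. PBS had no peak within 1 kb of the TSS. Within the gene, the region 1.3 to 4.3 kb downstream held 31 fragments under LPS and 33 under PBS. LPS peaks covered 47.3% of the *Hmox1* gene body and PBS peaks 28.7%, and at least as much was covered in 0.383% and 0.752% of protein-coding genes.

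**Figure D4:**
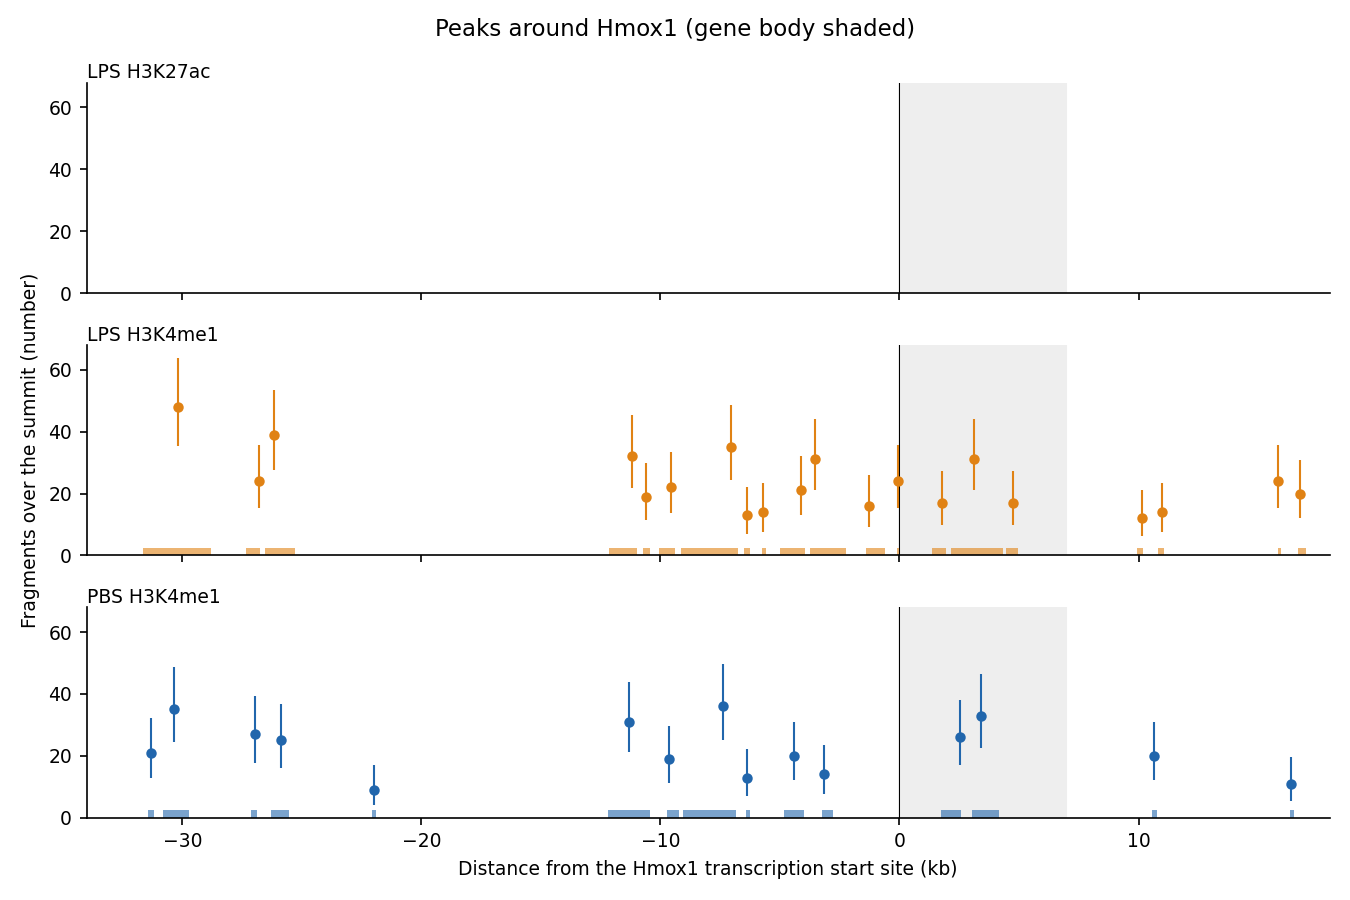
Fragments over each summit around *Hmox1*, by distance from the TSS in kb, with 95% Poisson intervals for counting error as lines and the extent of each peak as a bar along the axis. Summits of both H3K4me1 lists crowd upstream of the TSS and in *Tom1*, with up to 48 fragments under LPS and 36 under PBS, and the H3K27ac row is empty.

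Genes of the same pathways were examined with 5 lists of 86 genes in all, with the 7 enzymes left out. An LPS H3K27ac summit lay within 10 kb of the TSS of 23 of these (26.7%, against 8.92% of protein-coding genes) and a PBS H3K27ac summit of 1 (1.16%, against 0.164%). An LPS H3K4me1 summit lay there for 70 (81.4%, against 47.6%) and a PBS H3K4me1 summit for 63 (73.3%, against 41.0%). These differences were not tested. In the superoxide, heme and redox list an LPS H3K27ac summit lay within 10 kb at 15 of 28 genes. For the itaconate, tricarboxylic acid cycle and glycolysis list it was 4 of 16 genes. The arginine and nitric oxide list had 2 of 15, the sterol list 1 of 12, and the prostanoid and leukotriene list 1 of 15. With a −log10 q of at least 5 the 23 genes became 7, of which 4 were in the redox list and 3 in the itaconate list. The share of all protein-coding genes at that limit is not given here.

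In the redox list the strongest LPS H3K27ac peaks by −log10 q stood near *Txn1*, the cytosolic thioredoxin, *Prdx1*, a peroxiredoxin, *Ncf1*, a subunit of the phagocyte NADPH oxidase, *Srxn1*, which repairs peroxiredoxins, and *Fth1*, the ferritin heavy chain. The *Txn1* peak lay 605 bp upstream, 950 bp wide with 22 fragments and rank 33 of 4200. The *Prdx1* peak lay 1799 bp upstream with 12 fragments and rank 175. *Sod2* and *Hmox1* had no such peak, while *Hmox2*, the constitutive heme oxygenase, had one 95 bp upstream with 13 fragments (*Hmox2* was added after its value was seen).

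Of the genes around itaconate, *Aco1*, a cytosolic aconitase that also binds RNA when iron is low, had an LPS H3K27ac summit 56 bp downstream of the TSS with 17 fragments. *Ldha*, lactate dehydrogenase A, and *Pkm*, pyruvate kinase, had them 6745 bp upstream with 11 fragments and 3640 bp upstream with 9. In the arginine list one stood 1037 bp downstream of the TSS of *Gch1*, which makes the cofactor of nitric oxide synthases, with 10 fragments. Another stood 8335 bp upstream of the TSS of *Ddah2*, with 13 fragments. Neither peak overlapped H3K4me1 of either treatment, and these data do not tell which gene the one near *Ddah2* serves. In the prostanoid list the summit near *Ptges3*, a cytosolic prostaglandin E synthase, held 11.

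By presence or absence of a summit within 10 kb in the 4 lists, *Acod1* shared its pattern (H3K27ac under LPS, H3K4me1 under both) with 17 of the 86 pathway genes and 6.43% of protein-coding genes. *Ptgs2*, *Nos2*, *Arg1*, *Ch25h* and *Hmox1* had H3K4me1 under both treatments and no H3K27ac, as did 42 of the 86 and 30.6% of protein-coding genes. *Sod2*, with PBS H3K4me1 only, shared its pattern with *Cyp46a1* alone and with 3.43% of protein-coding genes.

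**Figure D5:**
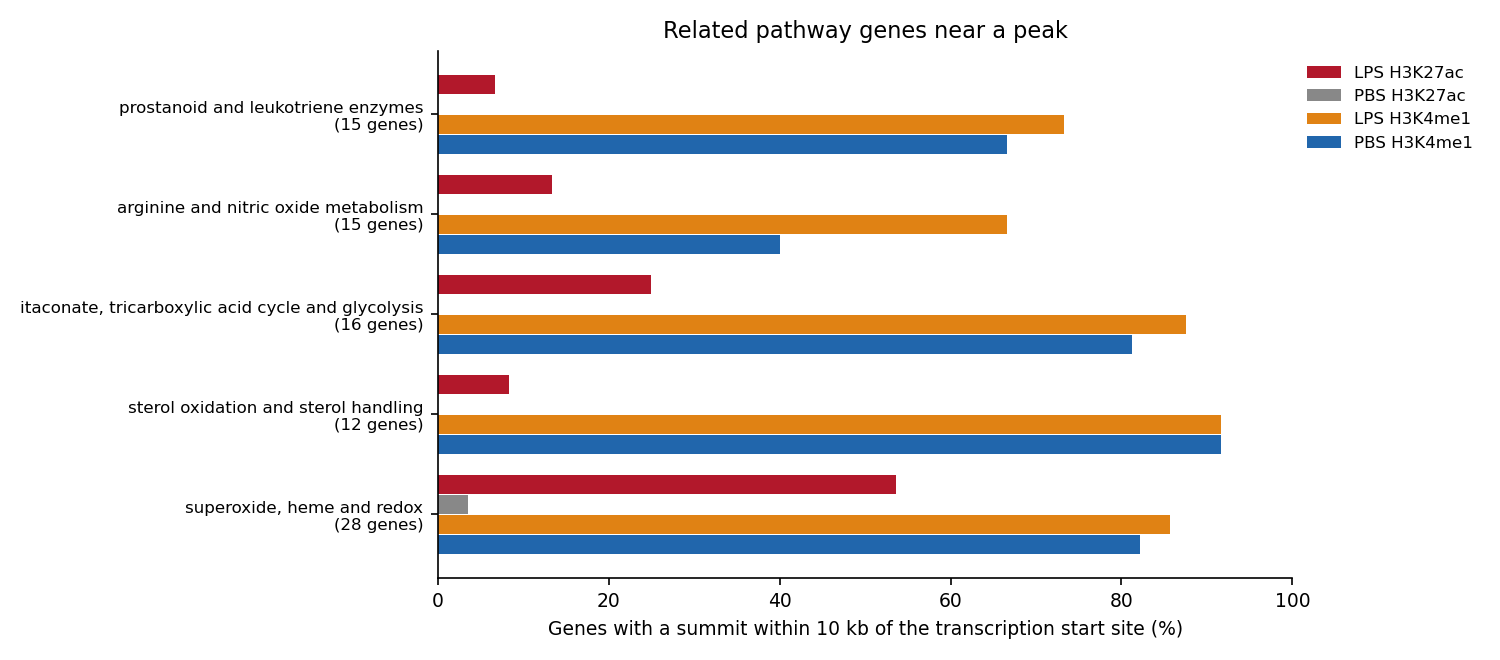
Share of the genes of 5 pathway lists, in percent, with a summit within 10 kb of the TSS in each of the 4 peak lists. The shortest H3K4me1 bar is that of PBS in the arginine list, at 6 of 15 genes, and the LPS H3K27ac bar is longest for the redox list, at 15 of 28 genes, and shortest for the prostanoid list, at 1 of 15.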

How the data were processed

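Reads of each library were trimmed, aligned to GRCm38 with Bowtie2 2.4.4 and cleared of blacklisted regions by the authors, who called peaks per library with MACS2 2.2.7.1 in the nf-core CUT&RUN pipeline. The deposited peak lists hold fold enrichment at the summit (a ratio over local background), −log10 p and −log10 q, and a score made from q, which was not used. Whether IgG served as the control in peak calling is not given in the sources used here. The smallest −log10 q was above 2 in each list.

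Peaks touching a gene body (GENCODE M21, with TSSs from its basic transcripts) extended by 50 kb were taken with Python 3.11.15, pandas 2.3.3, scipy 1.17.1 and pysam 0.24.0. Fragments over each summit and library totals (5.66 to 7.21 M fragments) were recovered from fold enrichment, with a pseudocount of 1, and the Poisson p, after a check on simulated peaks. All p were matched (100%, tolerance 0.002). Intervals are exact Poisson for fragments and Wilson for shares, at 95%, and cover counting error only. Peaks overlapped when they shared 1 bp. Motifs were sought on both strands within 100 bp of summits and in RefSeq promoters (GRCm38.p6). With 1 library per group, no test was run.

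Named were all 7 genes, their H3K27ac peaks, the nearest and highest H3K4me1 peak per list, the gene with the nearest TSS, and per pathway list up to 5 genes with LPS H3K27ac within 10 kb, ordered by −log10 q, of which some are not reported here. Other elements were picked after their values were seen. Genes, lists and motifs were chosen with earlier results of these data known. Alternatives were a −log10 q of 5, windows of 10 and 100 kb, merging within 1000 bp, lists of equal length and other overlap rules.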

Additional observations from a re-analysis of the deposited data

How the results depend on the processing

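Fragment counts limit what can be seen, since most peaks rest on few fragments and each list on 1 library. With a −log10 q of at least 5, the LPS H3K27ac peaks of the windows went from 4 to 1 and their genes from 2 to 1, the PBS H3K4me1 peaks from 83 to 42 and their genes from 7 to 4, and the share of all protein-coding genes with a window peak to 11.2% and 0.109% (LPS and PBS H3K27ac) and 67% and 62.2% (LPS and PBS H3K4me1). In windows of 10 kb there was 1 LPS H3K27ac peak at 1 gene, with 33 LPS and 31 PBS H3K4me1 peaks, and the shares of all genes were 14.2%, 0.264%, 57.6% and 52%. In windows of 100 kb there were 8 LPS H3K27ac peaks at 4 genes and 131 LPS H3K4me1 peaks, with shares of 39.5%, 0.998%, 80.9% and 78.9%. With neighbouring peaks joined across gaps of up to 1000 bp, H3K4me1 numbered 42 under LPS and 49 under PBS, so the order of the treatments turned. A narrow H3K27ac peak cannot cover 50% of a much wider H3K4me1 peak, whatever its position. Requiring 50% of both peaks to overlap lowered the overlapped shares to 35.6% (LPS H3K4me1), 37.3% (PBS H3K4me1), 0% (LPS H3K27ac with PBS H3K4me1) and 25% (LPS H3K27ac with LPS H3K4me1). Extending peaks by 500 bp raised them to 82.8%, 85.5% and, for LPS H3K27ac with LPS H3K4me1, 100%. At a −log10 q of 5 in both lists, 53.4% of LPS H3K4me1 peaks and 100% of LPS H3K27ac peaks (with LPS H3K4me1) were overlapped. Pathway genes with LPS H3K27ac numbered 46 within 50 kb and 7 at a −log10 q of 5, and those with PBS H3K27ac 2 and 0. For these counts no share of all protein-coding genes is given, so they cannot be set against other genes. The stricter limits and other windows count fewer or more peaks and genes, the overlap rules are stricter or looser on the same peaks, and for the joined peaks the cause was not tested. The remaining 28 values stayed within their limits, among them all those with H3K4me1 lists of equal length. With lists of equal length the windows held 78 LPS and 83 PBS H3K4me1 peaks, against 87 and 83 in the main run. The order of the treatments thus turned there too, and the cause was not tested. No paired analysis was possible because a single library stood for each antibody under each treatment.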
